A study of Danio rerio with 3 samples.

Results

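Yolk and egg envelope genes were followed in intestinal RNA of adult zebrafish (Danio rerio) after feeding on 3 diets. The group holds 7 of the 32519 gene identifiers in the deposited tables. They are the vitellogenin genes vtg2 and vtg3 and the zona pellucida genes zp2.1, zp2.3, zp3a.1, zp3a.2 and zp3b. They were chosen by gene name with their levels in these libraries already known, and each has 1 row with a complete estimate in every library. Differences of the 7 genes between diets are therefore descriptions, with no test.

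Vitellogenins are large lipid-carrying and phosphate-carrying proteins that mainly the liver of egg-laying females makes, under the control of oestrogen. They travel in the blood to the ovary, where growing oocytes take them up by receptors and cleave them into yolk proteins. Zona pellucida proteins are secreted and polymerise into the envelope around the egg, with zp2-type and zp3-type proteins as its building blocks. In zebrafish the genes of the egg envelope are known to be transcribed mainly in the ovary by oocytes, whereas in some other fish the liver makes such proteins.

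Fish aged 6 to 9 months were fed for 8 weeks, and on day 56, after a fast of 24 hours, their intestines were collected. The control group received commercial feed (Tetramin). The Cavendish group received granules that were 50% pulp of Cavendish banana, the common dessert fruit, and the Fe'i group granules that were 50% pulp of Fe'i banana, an orange-fleshed fruit rich in carotenoids. The rest of both granules was the same commercial feed, so all 3 groups ate some of it. Feed was given at 4% of body weight a day, and the banana granules held a smaller share of commercial feed than the control feed. Each diet has 1 library, so no difference could be checked against replicates. The sources used here do not give the strain, the sex or the number of fish in a library, nor the part of the intestine taken.

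Levels are FPKM, in which fragments are counted per unit of transcript length and of sequencing depth, so they can be compared between genes. They were divided by 1 scaling factor per library, and values after ± are half-widths of the deposited 95% interval, which covers counting and read assignment within a library and not differences between fish. The interval also gives an effective number of fragments behind a value, the square of its ratio to its SD. Counting SEs and counting intervals below are derived from the deposited intervals and cover the same errors. A log2 ratio is the difference between 2 libraries in log2(scaled FPKM + 1), and the added 1 shrinks the ratios of genes at low levels. Calls of higher or lower needed a log2 ratio of 1 or more in size, 95% intervals that did not overlap, and 1 scaled FPKM or more in the library with the larger value. The Cavendish library was sequenced 1.27 times and the Fe'i library 0.816 times as deeply as the control library. In bulk RNA, fewer cells of a type and less RNA per cell cannot be told apart.

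The vitellogenin genes vtg2 and vtg3 were abundant in all 3 libraries, and their levels were highest in the Fe'i library. vtg2 (chromosome 22, 24869690 to 24880824 in GRCz11) was at 2193 ± 9.81 (control), 2040.3 ± 8.75 (Cavendish) and 3719 ± 14.8 scaled FPKM (Fe'i). By level it took places 76, 121 and 40 among the 32510 genes with a complete estimate on control, Cavendish and Fe'i feed. The 3 intervals did not overlap, and the Fe'i library stood at 1.70 times the control and 1.82 times the Cavendish library, short of a 2-fold difference.

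vtg3 (chromosome 11, 7359496 to 7380688), a vitellogenin gene that lies apart from the others, was at 385 ± 17.2 (control), 291 ± 12.5 (Cavendish) and 745 ± 32.1 scaled FPKM (Fe'i). The order of the libraries was that of vtg2, again with no overlap of intervals. The log2 ratio of vtg3 was 0.95 (counting SE 0.04) for Fe'i against control, just inside 2-fold, and 1.35 (counting SE 0.04) for Fe'i against Cavendish, past it. The level of vtg2 divided by that of vtg3 was 5.70 (control), 7.02 (Cavendish) and 4.99 (Fe'i). The vtg3 interval is wide for its level, with 1991, 2152 and 2150 effective fragments on control, Cavendish and Fe'i feed against 200163, 217466 and 252066 for vtg2, so the widths of the 2 genes should not be compared.

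The egg envelope genes were low in the control and Cavendish libraries, at no more than 1.81 scaled FPKM, and higher in the Fe'i library. zp2.3 (chromosome 20, 54295213 to 54297047) was at 0.741 ± 0.371 (control), 0.200 ± 0.179 (Cavendish) and 14.9 ± 1.96 scaled FPKM (Fe'i), resting on 16, 5 and 230 effective fragments. zp2.1 (chromosome 20, 54309148 to 54310985), from the same gene cluster, was at 0.139 ± 0.161 (control), 0.0401 ± 0.0802 (Cavendish) and 4.25 ± 1.05 scaled FPKM (Fe'i), resting on 3, 1 and 66 effective fragments. Both encode zp2-type envelope proteins, and for both the Fe'i interval lay wholly above the control and Cavendish intervals, which overlapped each other.

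The zp3-type genes, which encode the other kind of envelope subunit, had the same order. zp3a.1 (chromosome 20, 33991801 to 33993698) was at 1.81 ± 0.576 (control), 0.979 ± 0.392 (Cavendish) and 15.5 ± 1.98 scaled FPKM (Fe'i). Its neighbour zp3a.2 (chromosome 20, 33987465 to 33989427) was at 0.390 ± 0.260 (control), 0.262 ± 0.198 (Cavendish) and 11.2 ± 1.64 scaled FPKM (Fe'i). zp3b, on another chromosome (chromosome 2, 6253246 to 6258796), was at 1.37 ± 0.948 (control), 0.594 ± 0.419 (Cavendish) and 8.16 ± 1.39 scaled FPKM (Fe'i). These 3 genes rested on 40, 9 and 8 effective fragments (control), on 25, 7 and 8 (Cavendish) and on 246, 186 and 137 (Fe'i). In each of them the Fe'i library stood above both others with no overlap of intervals.

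**Figure D1:**
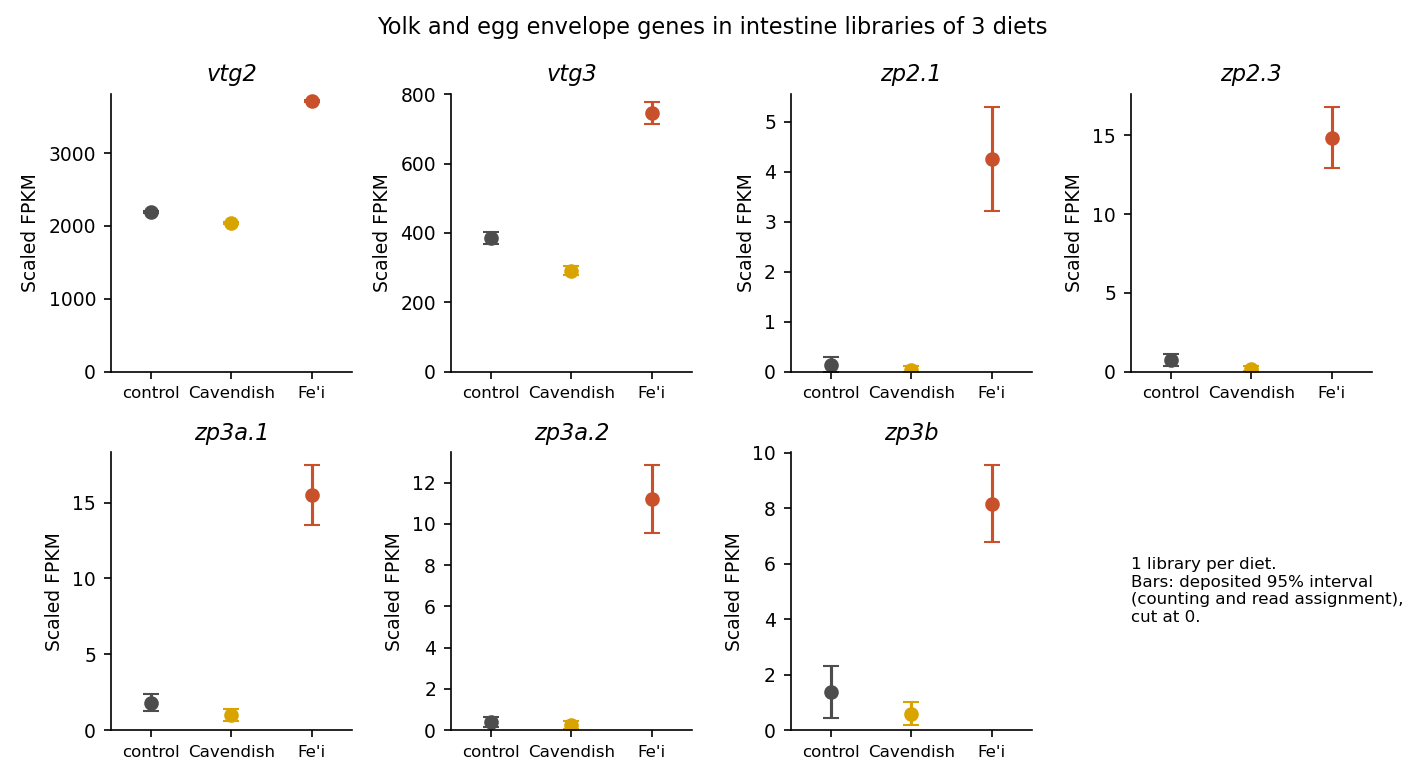
Scaled FPKM of the 7 genes (vertical axes, linear from 0, 1 panel per gene) on control, Cavendish and Fe'i feed (horizontal axes), as points with the deposited 95% interval as bars. The Fe'i library is highest in every panel, by less than 2-fold over the control for vtg2 and vtg3 and by far more for the zp genes, which lie at 1.81 scaled FPKM or below in the control and reach 15.5 with Fe'i feed.

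Between the Fe'i and control libraries 5 of the 7 genes were called higher and 0 lower, where 5.2% of the 13330 measured genes were called higher and 1.89% lower. The 5 are the egg envelope genes, and nothing is read from the count because the genes were chosen with this contrast known. The log2 ratio was 3.19 (counting SE 0.18) for zp2.3, 3.13 (SE 0.17) for zp3a.2, 2.55 (SE 0.17) for zp3a.1, 2.2 (SE 0.18) for zp2.1 and 1.95 (SE 0.31) for zp3b. Plain ratios of scaled FPKM are given with intervals computed on the rounded effective fragments, which are not true counts. By these, zp3b stood at 5.96 times (95% counting interval 2.94 to 14.1) and zp3a.1 at 8.56 times (95% counting interval 6.11 to 12.3) the control level. The ratio was 20.05 times (95% counting interval 12.1 to 35.7) for zp2.3, 28.7 times (95% counting interval 14.8 to 63.9) for zp3a.2 and 30.5 times (95% counting interval 10.0 to 152) for zp2.1. The intervals of zp2.1, zp2.3 and zp3a.2 overlap widely, so the order of these 3 ratios is not resolved at this depth. That of zp3a.1 lies below that of zp3a.2. Reads shared by these neighbouring genes were not measured, so no order of their ratios is read from this.

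Between the Fe'i and Cavendish libraries 6 of the 7 genes were called higher and 0 lower, where 4.31% of 13790 measured genes were called higher and 4.59% lower. The sixth is vtg3. zp2.3 had a log2 ratio of 3.72 (counting SE 0.14), zp3b one of 2.52 (SE 0.22) and zp2.1, the lowest of the 5 egg envelope members on this scale, one of 2.34 (SE 0.15). As a plain ratio of scaled FPKM, zp2.1 rests on 1 effective fragment in the Cavendish library and was 106 times (95% counting interval 18.4 to 4249).

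Between the Cavendish and control libraries 0 of the 7 genes were called in either direction, where 5.9% of 13552 measured genes were called higher and 1.71% lower. The levels of all 7 were nominally lower in the Cavendish library, and for vtg2 and vtg3 the intervals did not overlap, at 0.930 and 0.756 times the control. Among the egg envelope genes the 2 deposited intervals overlapped for each, with log2 ratios from -0.57 for zp3b to -0.13 for zp2.1. Only 4 of the 7 genes, vtg2, vtg3, zp3a.1 and zp3b, reached 1 scaled FPKM in either library, so the other 3 could not be called. As plain ratios with intervals on the rounded effective fragments, zp2.3 stood at 0.270 times (95% counting interval 0.0774 to 0.772) and zp3a.1 at 0.540 times (95% counting interval 0.314 to 0.913) the control level. Those of zp2.1, zp3a.2 and zp3b include 1. These intervals are descriptions and no count test, and the deposited intervals of zp2.3 and zp3a.1 overlapped, so no decrease is read from them. The control library takes part in both diet comparisons, so its values bear on both.

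Shares of single genes in the summed level of the 5 egg envelope members were read next. In the Fe'i library zp3a.1 made up 28.7% of their summed scaled FPKM, zp2.3 27.5%, zp3a.2 20.7%, zp3b 15.1% and zp2.1 7.87%. The intervals of zp3a.1 and zp2.3 overlapped there, and no other pair of the 5 did. That of zp3a.2 (9.560 to 12.84) nearly touched the upper end of zp3b at 9.556 and the lower end of zp2.3 at 12.91. Reads shared within the gene clusters were not measured, so the order of the levels is nominal. In the control library the shares were 40.7% for zp3a.1, 30.7% for zp3b, 16.7% for zp2.3, 8.75% for zp3a.2 and 3.13% for zp2.1. In the Cavendish library they were 47.2%, 28.6%, 9.65%, 12.6% and 1.93% for the same genes. These shares rest on 1 to 40 effective fragments a gene, and their differences between libraries were not tested. The sum of the 5 was 4.45 (control), 2.08 (Cavendish) and 54.0 scaled FPKM (Fe'i), which is 0.203%, 0.102% and 1.45% of the level of vtg2 in the same library.

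The other genes of both families were read by name. Of 6 further vitellogenin genes, vtg1, vtg4, vtg5, vtg6 and vtg7 lie beside vtg2 on chromosome 22 and are listed at 0 with the Cufflinks status for too many fragments in every library, so they have no usable value. vtg8 (chromosome 22, 24888649 to 24900385) was at 1.15 ± 0.240 (control), 1.06 ± 0.219 (Cavendish) and 2.45 ± 0.409 scaled FPKM (Fe'i), far below vtg2. Its log2 ratio for Fe'i against control was 0.68 (counting SE 0.12), which the added 1 shrinks at this level. As a plain ratio it was 2.13 times the control (95% counting interval 1.63 to 2.81). Vitellogenin genes are known to be alike in sequence, and how far reads were split between vtg2 and these neighbours was not measured here, so the vtg2 value is uncertain to that extent.

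Of 16 other egg envelope and egg surface symbols, 14 were in the files, and 11 of these 14 were called higher for Fe'i against control, 0 were called lower, and the counts were the same against the Cavendish library. The count was 7 in both comparisons when the pseudocount or the minimum level was raised to 5. In each comparison 11 of the 14 were measured, at 1 scaled FPKM or more in either library, and the others could not be called. That level was reached by 1 of the 14 (control), 0 (Cavendish) and 11 (Fe'i). Except for zp3 against the control, the measured genes thus passed only through the Fe'i library and could not be called lower there. Nothing is therefore read from these counts. Among all measured genes, 5.2% were called higher and 1.89% lower against the control, and 4.31% and 4.59% against the Cavendish library. Over all 14, with no minimum level, the median log2 ratio was 2.2 against the control, where that of all 32510 genes was 0.00. Against the Cavendish library the median was 2.3, again beside 0.00. Of these genes zp2.2, zp2.5 and zp2.6 lie in the chromosome 20 cluster of zp2.1 and zp2.3, and reads shared within it were not measured.

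Within the zp2 cluster, zp2.2 was at 0.949 ± 0.424 (control), 0.492 ± 0.285 (Cavendish) and 9.84 ± 1.59 scaled FPKM (Fe'i). zp2.6 was at 0.463, 0.120 and 8.68 and zp2.5 at 0.140, 0.257 and 4.97 scaled FPKM on control, Cavendish and Fe'i feed. Among zp3-type genes, zp3f.1 was at 0.614, 0.319 and 12.5, zp3 at 1.32, 0.817 and 8.33 and zp3e at 0.306, 0.164 and 6.15 in the same order. All 6 were at 1.32 scaled FPKM or below outside the Fe'i library.

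Lower levels were seen for zp3f.2 at 0.0654, 0.0567 and 1.31, zp3c at 0.155, 0.0334 and 1.88, zp3d.1 at 0.107, 0.0692 and 0.541 and zp3d.2 at 0, 0 and 0.311 scaled FPKM on control, Cavendish and Fe'i feed. The zpax genes encode a further kind of zona pellucida protein of fish and amphibians. zpax1 was at 0.615, 0.236 and 9.58 and zpax4 at 0.227, 0.440 and 11.0, while zpcx was at 0.224, 0.0829 and 2.66. spaca4l, which has no zona pellucida name, was at 0.0770, 0.298 and 0.156 and was not higher in the Fe'i than in the Cavendish library. Of the 14, zp3d.1, zp3d.2 and spaca4l stayed below 1 scaled FPKM in every library.

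A further 5 rows with egg envelope names were added after their values were seen. The 2 rows named zp3.2 overlap or adjoin zp3 on chromosome 17 and may share its reads. One reached 18.0 ± 2.1 and the other 6.58 ± 1.15 scaled FPKM in the Fe'i library. Their levels were at most 1.32 (control) and 0.844 scaled FPKM (Cavendish). zp2l1 was at 0.674, 0.182 and 7.27, zp2l2 at 0, 0.0438 and 0.273 and zpax2 at 0, 0 and 0.149 on control, Cavendish and Fe'i feed. Counting these and the members, and leaving out spaca4l, 23 egg envelope genes were read. This set was drawn up after values were seen. The gene left out was the only 1 of the 14 that was lower in the Fe'i than in the Cavendish library. Sums and counts over the 23 are therefore descriptions only. They summed to 12.3 scaled FPKM (control), 6.59 (Cavendish) and 164 (Fe'i). At 1 scaled FPKM or more there were 4 (control), 0 (Cavendish) and 19 (Fe'i).

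**Figure D2:**
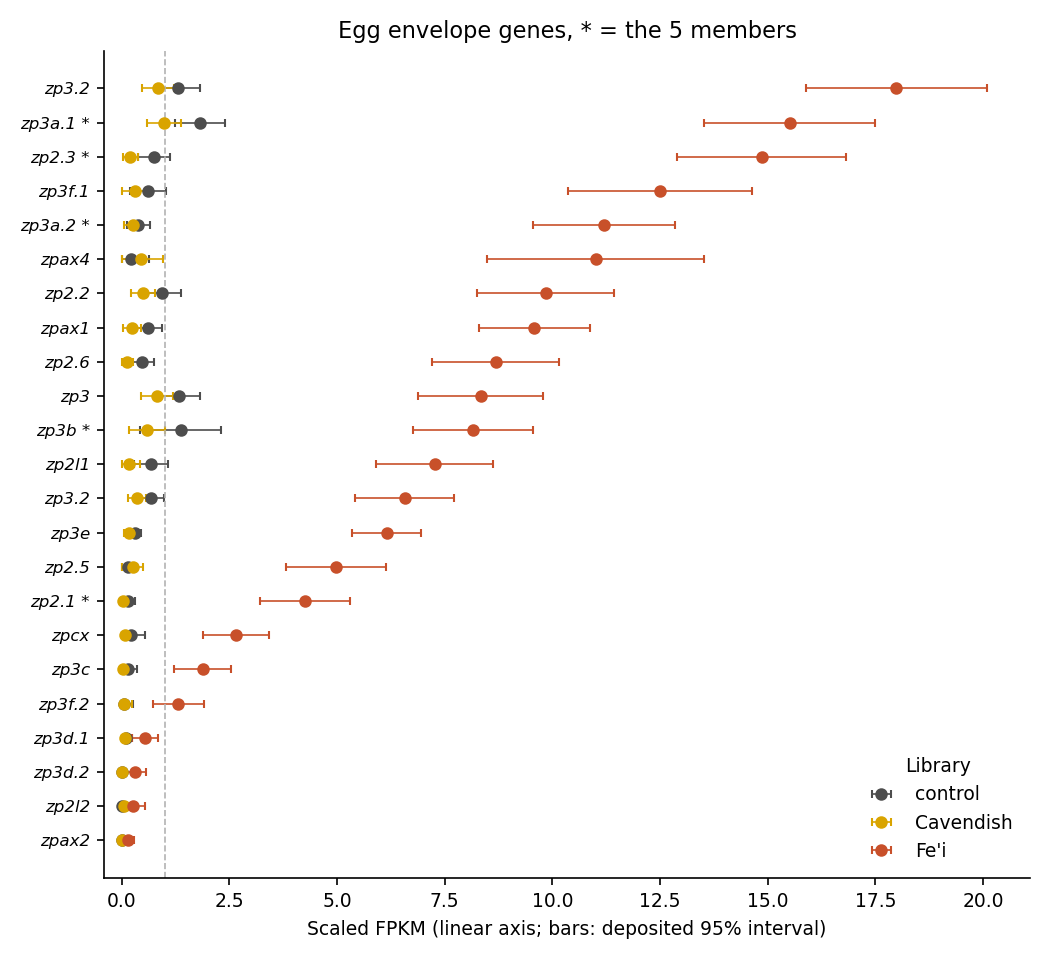
Scaled FPKM (horizontal axis, linear) of 23 egg envelope genes without spaca4l (rows, ordered by the Fe'i level) on control, Cavendish and Fe'i feed, with the deposited 95% interval as bars; stars mark the 5 members, zp3.2 names 2 separate rows and the dashed line is at 1. Control and Cavendish points lie at 1.81 or below for every gene, and 19 genes lie above 1 in the Fe'i library, the highest at 18.0.

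Of the genes next to the egg envelope members on the chromosome, those outside the family and its clusters were not called higher in the Fe'i library. Among all measured genes only 5.2% were called higher against the control and 4.31% against the Cavendish library, so nothing is read from this. The zp2 cluster on chromosome 20 holds an unnamed gene, si:zfos-1505d6.3 (chromosome 20, 54299419 to 54301276), between zp2.3 and zp2.6, which was at 0.381, 0.239 and 6.4 scaled FPKM on control, Cavendish and Fe'i feed. Next to the cluster, actr10, which encodes a dynactin subunit, was at 13.8 ± 1.31 (control), 14.8 ± 1.24 (Cavendish) and 16.1 ± 1.61 scaled FPKM (Fe'i). Beside zp3b, gng5, a G protein gamma subunit gene, was at 81.0 ± 5.30 (control), 84.1 ± 5.01 (Cavendish) and 76.2 ± 5.96 scaled FPKM (Fe'i). Also near zp3b, ppm1la was at 2.11 ± 0.419 (control), 1.83 ± 0.361 (Cavendish) and 3.81 ± 0.652 scaled FPKM (Fe'i). It was not called, but its Fe'i interval lay above both others. Beside the zp3a pair, scyl3 was at 7.05, 10.0 and 8.88, and its log2 ratio for Fe'i against control was 0.30. On the other side of the pair, si:dkey-51e6.1 was at 10.9, 17.0 and 16.5 and sele at 0.579, 3.00 and 0.813. The sele gene was called higher in the Cavendish library than in both others. Next to vtg3, adgrl4 was at 0.386, 1.28 and 1.1, and the nearest gene on the other side was listed at 0 in all 3 libraries.

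Genes of the oocyte were asked about next, since egg envelope genes are transcribed there. Of 27 symbols 25 were in the files, and 10 of the 25 were called higher for Fe'i against control, 0 were called lower, and 11 and 0 were called against the Cavendish library. In each comparison 12 of the 25 were measured, at 1 scaled FPKM or more in either library. The shares over all measured genes were 5.2% higher and 1.89% lower against the control, and 4.31% and 4.59% against the Cavendish library. One symbol of the list, h2af1o, was not found by that name, so the gene given below as h2af1al is not in these counts and medians. At 1 scaled FPKM or more there was 1 of the 25 (control), 1 (Cavendish) and 12 (Fe'i). In the control and Cavendish libraries this was rbpms2b. Its level was 2.01 ± 1.84 (control), 4.59 ± 1.98 (Cavendish) and 3.38 ± 2.47 scaled FPKM (Fe'i), nominally highest in the Cavendish library and not called. The other measured genes passed only through the Fe'i library and could not be called lower there, so nothing is read from these counts. Over all 25, with no minimum level, the median log2 ratio was 0.54 for Fe'i against control, 0.74 for Fe'i against Cavendish and -0.08 for Cavendish against control, beside 0.00 over all genes in each. These levels are low, and the counts fell to 0 against the control and 1 against the Cavendish library with a pseudocount of 5, and to 1 in both with a minimum of 5 FPKM.

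zar1, whose protein binds RNA in zebrafish oocytes and is needed for their growth, was at 0.217 ± 0.385 (control), 0.376 ± 0.386 (Cavendish) and 2.05 ± 0.885 scaled FPKM (Fe'i). Its relative zar1l was at 0.309, 0.0382 and 2.2. buc, the organiser of the Balbiani body of zebrafish oocytes, was at 0.298 ± 0.235 (control), 0.443 ± 0.321 (Cavendish) and 2.38 ± 0.580 scaled FPKM (Fe'i). gdf9, an oocyte growth factor, was at 0.0275, 0 and 0.222 and so below 1 scaled FPKM in every library.

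The other oocyte genes with the largest ratios were cldnd, a claudin gene, at 0.880 ± 0.587 (control), 0.0854 ± 0.171 (Cavendish) and 6.20 ± 1.82 scaled FPKM (Fe'i), and org, named for its link to oogenesis, at 0.240 ± 0.277 (control), 0.348 ± 0.311 (Cavendish) and 4.96 ± 1.46 scaled FPKM (Fe'i). slbp2, the oocyte form of the histone stem-loop binding protein, was at 0.477, 0.0375 and 2.86 on control, Cavendish and Fe'i feed. ca15b, a carbonic anhydrase gene, was at 0.150, 0 and 2.64 and pabpn1l, which encodes a poly(A)-binding protein, at 0.152, 0.0659 and 2.35. lrp13, which encodes a lipoprotein receptor of the fish ovary, was at 0.0611 ± 0.401 (control), 0.0315 ± 0.342 (Cavendish) and 0.741 ± 0.865 scaled FPKM (Fe'i), an interval that reaches 0 in each library.

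Genes shared by male and female germ cells were mostly at or below 1 scaled FPKM. Of 16 in the files, 1 was called higher in the Fe'i library against the control, gtsf1, at 0.264 ± 0.331 (control), 0.227 ± 0.320 (Cavendish) and 2.90 ± 1.06 scaled FPKM (Fe'i). In that comparison only 4 of the 16 were measured, at 1 scaled FPKM or more in either library, and the others could not be called. Among all measured genes 5.2% were called higher, and nothing is read from a count of 1. ddx4, the germ cell RNA helicase vasa, was at 0.0601, 0.0193 and 0.378 and dazl, a germ cell RNA-binding protein gene, at 0.0285, 0 and 0.115 on control, Cavendish and Fe'i feed. piwil2, a small-RNA-guided nuclease gene of germ cells, went the other way, at 1.16, 0.362 and 0.684, with no call. sycp1 and tdrkh were at 1.8, 1.63 and 2.04 and at 2.15, 2.47 and 2.43.

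Markers of the supporting cells of the gonad and of the testis were mostly below 1 scaled FPKM, many of them at or near 0. cyp19a1a, the aromatase of ovarian follicle cells, was at 0.0632, 0 and 0.0426 scaled FPKM on control, Cavendish and Fe'i feed. foxl2a and fshr were listed at 0 in all 3. Of 14 such genes, rspo1 alone reached 1 scaled FPKM in any library, at 1.39, 3.78 and 1.25, and was called higher in the Cavendish library. dmrt1, a testis regulator, was listed at 0 in all 3 libraries and insl3, a Leydig cell hormone gene, was at 0, 0 and 0.102. Of 11 testis genes, izumo1 alone reached 1 scaled FPKM, at 0.260, 1.17 and 0.

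**Figure D3:**
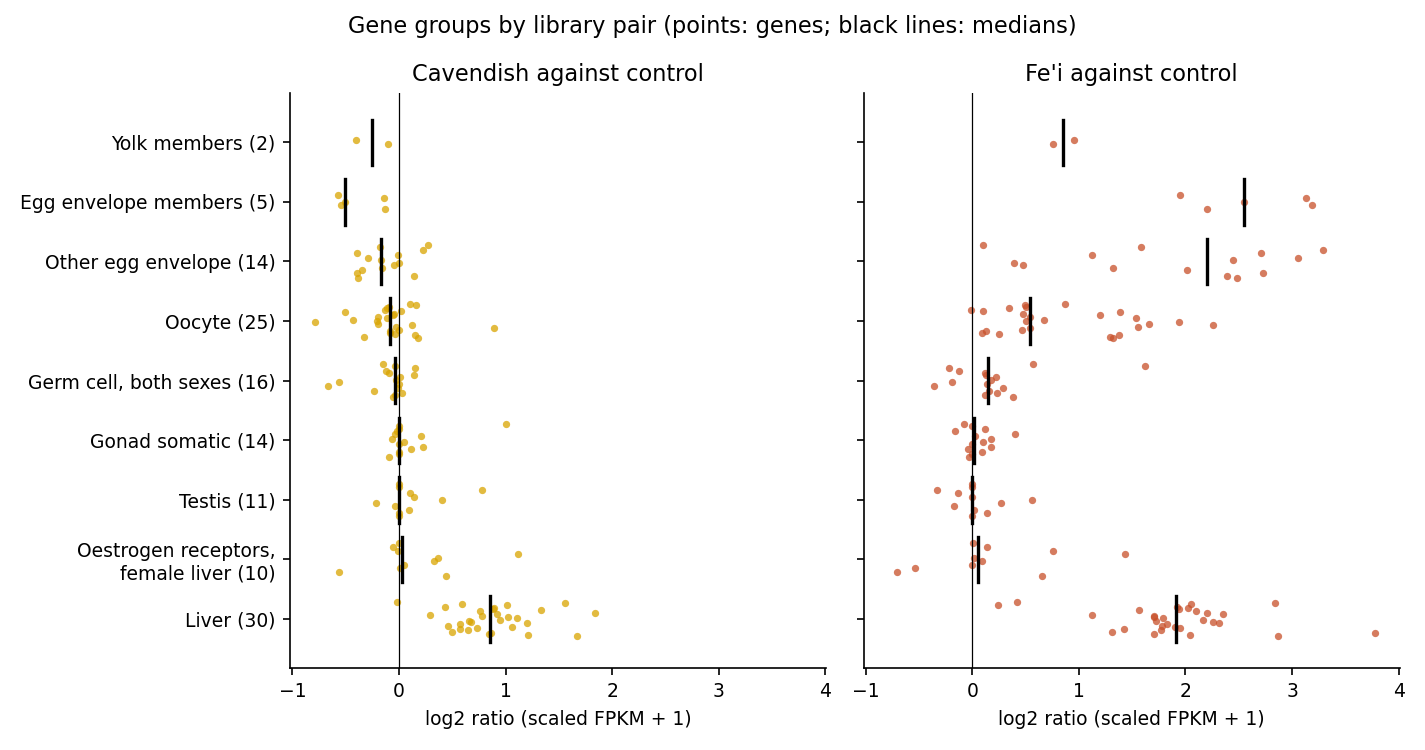
Log2 ratios of scaled FPKM + 1 (horizontal axes) of single genes (points) in 9 gene groups (rows, with the number of genes in the files) for Cavendish against control (left) and Fe'i against control (right), with black lines at the medians. In the right panel the medians are 2.55 for the egg envelope members, 2.2 for other egg envelope genes, 0.54 for oocyte genes and 1.91 for liver genes. They are 0.02 for gonad somatic and 0.00 for testis genes. Of those, 1 of 14 and 0 of 11 reached 1 scaled FPKM in the control or Fe'i library. The added 1 holds ratios at such levels near 0, so the gonad somatic and testis medians do not show a lack of change.

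Vitellogenins are known mainly as liver products, so their levels were set beside 30 liver genes. Which tissue gave the vitellogenin RNA in these libraries was not tested. None of the 30 was at 0 in any library, and their summed level was 7248 scaled FPKM (control), 15178 (Cavendish) and 30441 (Fe'i). Of these genes 28 were called higher and 0 lower for Fe'i against control (median log2 ratio 1.91), and 17 and 0 for Fe'i against Cavendish (median 1.09). For Cavendish against control 10 were called higher and 0 lower (median 0.85), but the count was 6 with the deposited FPKM and 4 with TPM scaling. In the same order of comparisons, 5.2%, 4.31% and 5.9% of all measured genes were called higher and 1.89%, 4.59% and 1.71% lower. The median log2 ratio over all genes was 0.00 in each. fabp10a, the liver fatty acid binding protein, was at 1073 ± 35.4 (control), 3423 ± 61.0 (Cavendish) and 7829 ± 113 scaled FPKM (Fe'i). hpx, the heme carrier hemopexin, was at 79.0 ± 4.18 (control), 144 ± 6.79 (Cavendish) and 1098 ± 46.6 scaled FPKM (Fe'i). The other 4 liver genes with the greatest ratios were agxtb at 21.5, 65.6 and 160.3, uox, urate oxidase, at 73.0, 139 and 378, gc, the vitamin D carrier of plasma, at 9.12, 22.3 and 49.3 and ttr, the thyroid hormone carrier transthyretin, at 9.24, 15.4 and 48.0 scaled FPKM on control, Cavendish and Fe'i feed. The part of the amount of liver RNA in the vitellogenin levels was not tested.

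Against the control library vtg2 and vtg3 had lower ratios than most liver genes. For Cavendish against control all 30 liver genes had higher log2 ratios than vtg2 and vtg3, the lowest being cyp2ad2 at -0.02. For Fe'i against control 28 of the 30 had higher ratios than vtg2 and than vtg3. For Fe'i against Cavendish this did not hold for vtg3, at 1.35 above 25 of the 30. There vtg2, at 0.87, lay below 18 of the 30 and above 12. Divided by the geometric mean of the 30 liver genes in the same library, which removes the scaling, vtg2 stood at 36.7 (control), 18.3 (Cavendish) and 16.3 (Fe'i). The same quotient for vtg3 was 6.44, 2.61 and 3.27. With the median of the liver genes in place of the geometric mean it was 40.8, 15.8 and 19.5 for vtg2, so the control library is highest both ways while the order of the banana libraries is not fixed.

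nots, which encodes nothepsin, an aspartic protease known from the liver of female zebrafish, followed vtg2 closely. It was at 323 ± 16.1 (control), 321 ± 15.0 (Cavendish) and 548 ± 26.6 scaled FPKM (Fe'i). vtg2 stood at 6.78 times nots (control), 6.35 times (Cavendish) and 6.79 times (Fe'i). Its log2 ratio was -0.01 for Cavendish against control, above 1 of the 30 liver genes, and 0.76 for Fe'i against control, above 2 of the 30. nots was put on the list for what is known of its sex-specific expression. That list of 10 genes was chosen with earlier results of these data known. On it, shbg was at 16.7, 37.5 and 46.7 and esr1 at 4.74, 6.78 and 7.97 scaled FPKM on control, Cavendish and Fe'i feed. Both were lowest in the control library, whereas vtg2 was lowest in the Cavendish library. greb1 and cyp19a1b had the order of vtg2, but below 1 scaled FPKM in every library. nots was not among the 8 genes nearest to vtg2 in profile, and its likeness to vtg2 was not tested.

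**Figure D4:**
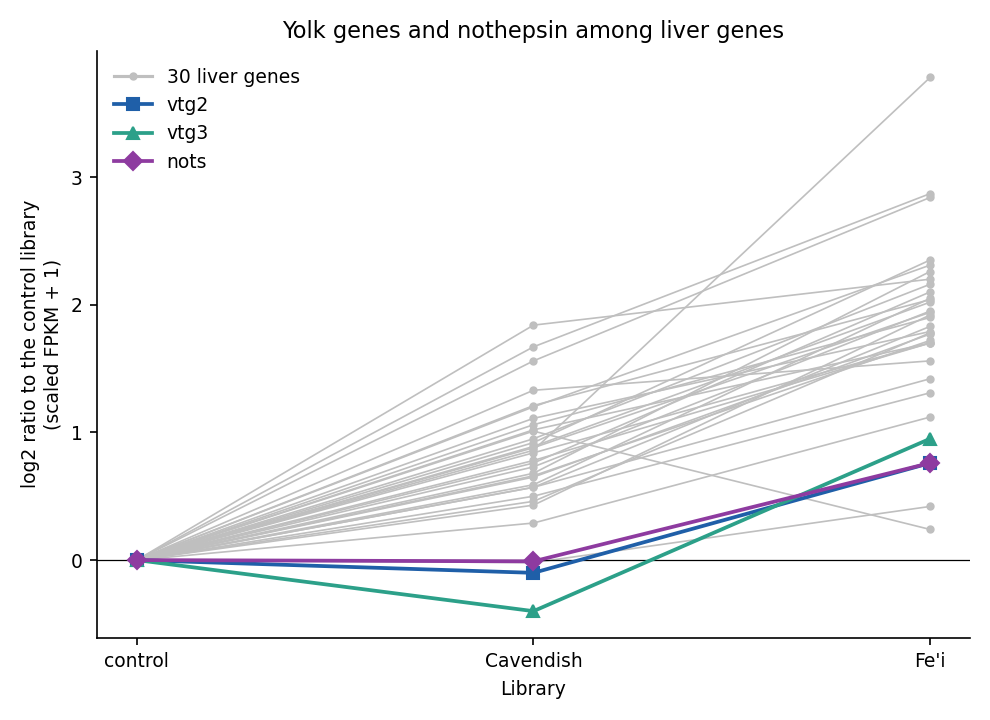
Log2 ratio to the control library of scaled FPKM + 1 (vertical axis) on control, Cavendish and Fe'i feed (horizontal axis) for 30 liver genes (grey), vtg2, vtg3 and nots. Lines join the values of 1 gene and do not stand for a time course. vtg2 and vtg3 lie below all 30 liver genes in the Cavendish library, at -0.10 and -0.40, and below 28 of them in the Fe'i library.

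Among genes of oestrogen action, esr1, the receptor through which oestrogen induces vitellogenin in the fish liver, was at 4.74 ± 0.767 (control), 6.78 ± 0.806 (Cavendish) and 7.97 ± 1.13 scaled FPKM (Fe'i). Its relatives esr2a and esr2b were at 2.94, 1.66 and 1.4 and at 11.1, 11.2 and 7.28 on control, Cavendish and Fe'i feed. ar, the androgen receptor gene, was at 0.972, 1.48 and 1.1. None of these 4 receptors was called in any comparison. shbg, the plasma carrier of sex steroids, was at 16.7 ± 1.62 (control), 37.5 ± 2.24 (Cavendish) and 46.7 ± 3.15 scaled FPKM (Fe'i) and was called higher in both banana libraries against the control. Of the 10 genes of this list it is the only one called against the control, where the median over all 10 was 0.03 for Cavendish and 0.05 for Fe'i feed. Only 6 of the 10 were measured in each of these 2 comparisons. Among all measured genes 5.9% (Cavendish) and 5.2% (Fe'i) were called higher against the control. cyp19a1b, the brain aromatase, pgr and gper1 stayed below 1 scaled FPKM in every library.

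Of 7 genes for the uptake and use of yolk lipoproteins, 5 were at 1 scaled FPKM or more in each library. vldlr, the very low density lipoprotein receptor, was at 4.70, 4.66 and 6.83 scaled FPKM on control, Cavendish and Fe'i feed. lrpap1, a chaperone of such receptors, was at 28.3, 20.7 and 47.4 and was called higher in the Fe'i than in the Cavendish library. ctsd, a cathepsin that cleaves vitellogenin in oocytes and works in lysosomes of many tissues, was at 174, 179.7 and 269.6. ctsba, a cathepsin B gene, was highest in the Cavendish library, at 128, 185 and 125. mttp, which loads lipid onto lipoproteins in gut and liver, was highest in the control, at 228, 123 and 149.

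The genes with the profile most like each of these were found among 6761 named genes at 5 scaled FPKM or more in a library, by the Euclidean distance between log2 profiles over the 3 libraries, each centred on its own mean. Nearest to the mean of the 5 egg envelope members were zp2.6 (distance 0.101), zp2.2 (0.103) and zp2l1 (0.215), followed by ccl39.2, h2af1al, qdprb2, hsd17b3 and retsatl (0.242 to 0.323). h2af1al, listed in RefSeq under the older name h2af1o of a histone H2A form of the egg, was at 2.22 ± 1.23 (control), 2.11 ± 1.13 (Cavendish) and 23.1 ± 4.62 scaled FPKM (Fe'i). It was on the oocyte list under the older name, so it is no new kind of gene here. ccl39.2, a chemokine gene, was at 16.3 ± 5.23 (control), 14.3 ± 3.34 (Cavendish) and 132 ± 20.4 scaled FPKM (Fe'i).

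Nearest to vtg2 were cyp2y3 (distance 0.00917), a row named NAT16 (1 of many) (0.0111), glmp (0.0220), fbxo25, gcat, bckdhb, a row named MFAP4 (1 of many) and exoc6 (up to 0.0475). cyp2y3, a cytochrome P450 gene, was at 15.5 ± 1.49 (control), 14.5 ± 1.31 (Cavendish) and 27.1 ± 2.27 scaled FPKM (Fe'i). Nearest to vtg3 were naga (0.0196), rrbp1b (0.0395), snx10a, ctns, cldnh, gig2e, znfx1 and cdkn3 (up to 0.113). naga, a lysosomal glycosidase gene, was at 82.6 ± 4.65 (control), 63.4 ± 3.70 (Cavendish) and 163 ± 7.21 scaled FPKM (Fe'i). With 3 libraries many genes share a profile by its shape alone, and a small distance says no more than that.

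The labelled tissue was checked against enterocyte genes, of which 18 of 19 in the files were at 1 scaled FPKM or more in each library. They summed to 4.30%, 2.52% and 2.70% of all FPKM on control, Cavendish and Fe'i feed. Against the control 3 (Cavendish) and 2 (Fe'i) of the 18 were called lower and 0 higher. Among all measured genes 1.71% and 1.89% were called lower and 5.9% and 5.2% higher. Exocrine pancreas genes summed to 5.89%, 14.2% and 5.05% of all FPKM on control, Cavendish and Fe'i feed, so pancreatic RNA was highest where the vitellogenin and egg envelope levels were lowest. The part of these tissue shares in the results was not tested.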

How the data were processed

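Poly(A) RNA was sequenced in paired reads of 150 bases, per the labels. The submitters' processing notes name FastQC 0.11.5, TopHat2 2.1.0 and the build GRCz11. Per the file headers and the labels, the authors computed the deposited FPKM and their 95% intervals with Cufflinks, whose version and options the sources used here do not give. Locus starts were raised by 1 to count from 1. Rows were summed by gene identifier, and 9 rows per file with another status than OK left 32510 of 32519 genes.

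Each library was scaled by the median, over genes of at least 1 FPKM throughout, of its quotient to their geometric mean, and the factors were 1.06 (control), 0.969 (Cavendish) and 0.965 (Fe'i). Depth was read from the intervals: below 20 effective fragments the number was whole within 0.05 for 44.3% to 44.6% of genes, so no count test was run. No p-value was computed. PCR copies are not independent molecules, and intervals cover counting and read assignment error only.

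The members and gene lists were chosen with earlier results of these data known. The text names all members and other family genes, up to 6 genes per list with the greatest ratios at 1 FPKM or more (pancreas and enterocyte genes are given as sums or counts only), 12 fixed marker genes, and the 8 genes nearest to each profile. Genes beside the members, and rbpms2b, fshr, foxl2a, pgr, gper1 and cyp19a1b, were named after their values were seen. Symbols absent from the files were looked up in the gene name table by identifier. Alternatives changed the pseudocount, minimum, scaling, rows, status and interval rule. Python 3.11.15, numpy 2.4.6, pandas 2.3.3 and scipy 1.17.1 were used.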

Additional observations from a re-analysis of the deposited data

How the results depend on the processing

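The number of members called stayed at 5 for Fe'i against control and 6 for Fe'i against Cavendish, or 1 fewer, and at 0 for Cavendish against control under all 10 alternatives. zp2.1 was the gene lost, with a pseudocount of 5 (log2 ratio 0.85 and 0.88) and with a minimum of 5 FPKM. No member ratio changed sign. vtg2 ranged from 0.62 to 0.76 for Fe'i against control and from -0.37 to -0.10 for Cavendish against control. In the same comparisons vtg3 ranged from 0.81 to 0.95 and from -0.67 to -0.40. For Fe'i against Cavendish vtg2 ranged from 0.86 to 0.99, the latter with TPM scaling and just inside 2-fold, and vtg3 from 1.34 to 1.48. The ratio of zp2.3 for Fe'i against control ran from 1.79 to 4.15 with the pseudocount. These ranges of single genes and the liver median were added after the data were seen.

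Calls over all genes, 1031 for Cavendish against control, 945 for Fe'i against control and 1227 for Fe'i against Cavendish, changed with the threshold on low values. A pseudocount of 5 gave 375, 412 and 502. A pseudocount of 0.1 gave 1628 for Cavendish against control, and a minimum of 5 FPKM gave 676 there and 811 for Fe'i against Cavendish. The share of higher calls for Cavendish against control was 77.5%, but 66.9% for unscaled FPKM, 53.4% for TPM and 67.3% for TPM computed with pancreas and mitochondrial genes left out. In TPM the measured genes had median log2 ratios of -0.20 for Cavendish against control, -0.11 for Fe'i against control and 0.10 for Fe'i against Cavendish. No paired analysis was possible because each diet has 1 library, and no library could be left out. In the control and Cavendish libraries the zp members rest on 1 to 40 effective fragments, which limits their ratios.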
